A study of Ovis aries with 2 samples.

Results

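Kinesins are motor proteins that use ATP to walk along microtubules, or, in some families, to take microtubules apart from their ends. In the testis they are known for work at every step of germ cell development: moving and sorting chromosomes on the spindle, splitting the daughter cells, carrying cargo, and building the sperm tail. Here the kinesin genes were described by germ cell stage, somatic cell type and library in single testis cells of sheep. Members were all genes whose symbol is KIF followed by a digit, or begins with KIFC, and 38 of the 27054 genes listed in the files met that rule. Of those 27054 genes, 10636 have an identifier and no symbol, so a kinesin listed without a symbol would not be among the 38. Several other known kinesins (KIF4B, KIF11, KIF16B, KIF26A, CENPE and STARD9) matched no symbol and were not analysed here.

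The study holds 2 droplet libraries of sheep testis, both from the age of 8 months and both prepared on the 10x Genomics platform with a 3' kit. The first is a control. The second is labelled ZEA with the number 0.75, for which the labels give no unit. ZEA commonly stands for zearalenone, an oestrogen-like toxin made by Fusarium moulds, although the labels do not write the name out or describe how the exposure was done. The sources used here name neither the breed nor the number of animals behind a library. With 1 library per group no test between the groups was possible, and the treatment cannot be told apart from any other way in which these preparations differ.

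The assay counts RNA molecules by unique molecular identifiers (UMIs). After filtering, 6811 control cells with a median of 4121 UMIs and 8804 ZEA cells with a median of 1405.5 UMIs were kept. Kinesins gave 147240 control and 57521 ZEA UMIs, which is 0.292% and 0.260% of all UMIs. The median cell held 10 kinesin UMIs (control) or 3 (ZEA), and 5.36% of control and 7.01% of ZEA cells held none. Only 15 barcode strings were kept in both libraries. The doublet caller marked 198 control barcodes (2.82%) and 1 ZEA barcode (0.0114%), so it did not work for ZEA, where doublets were left in.

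Cells were clustered without the kinesins, and 18 of 25 clusters were named from marker genes. The named germ classes were spermatogonia-like (35 control and 17 ZEA cells), late spermatocyte-like (1120 and 6), round spermatid-like (1208 and 720) and elongating spermatid-like cells (2004 and 1014). The spermatogonia-like cluster had TEX11, a gene of meiosis, among its leading genes, and SYCP3, a gene of meiotic chromosomes, at 62.9 CPM (36.6 to 101) beside 2.40 CPM in late spermatocyte-like cells. Its name depends on the clustering. With doublets kept, no cluster was named spermatogonia-like and 1 of 99 control and 17 ZEA cells was named early spermatocyte-like. At Leiden resolution 0.5 neither name was given. The somatic classes were Sertoli-like (113 and 1), leukocyte-like (45 and 152), endothelial-like (4 and 2194), lymphatic endothelial-like (1 and 65), peritubular myoid-like (3 and 498), perivascular-like (4 and 344) and stromal fibroblast-like cells (11 and 366). Spermatogenesis up to the spermatocyte could thus be read mainly in the control library and most somatic types in the ZEA library. Another 2263 control and 3427 ZEA cells lay in 7 unnamed clusters. Levels are UMI sums over the cells of a class divided by all UMIs of those cells and scaled to the usual common total (CPM), and every range in brackets is an exact 95% interval that covers counting error only.

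**Figure D1:**
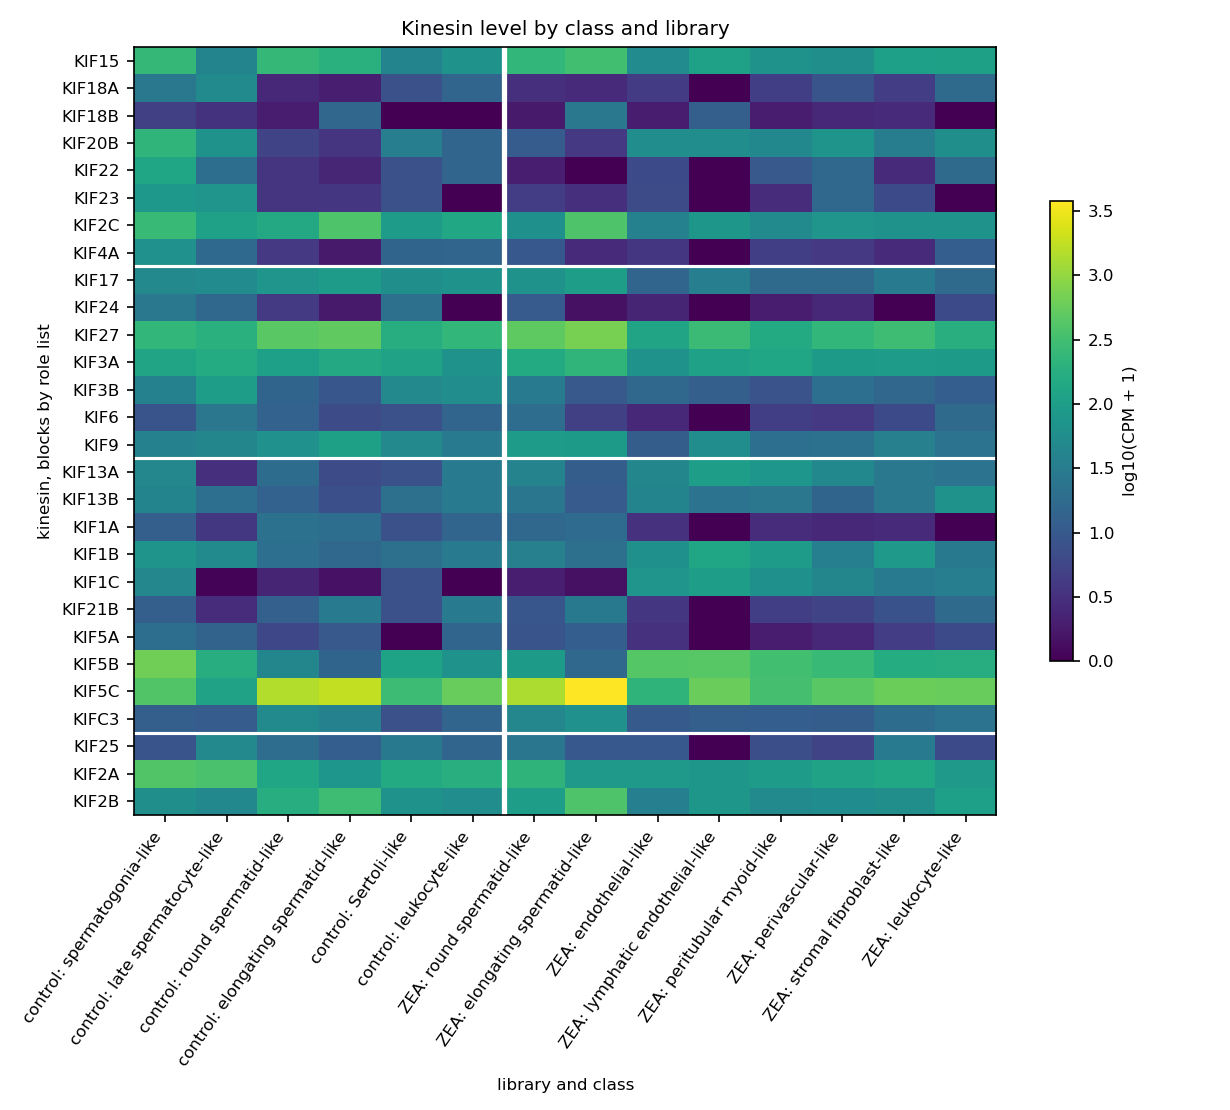
Level of the 28 kinesins with at least 200 UMIs over both libraries (rows, in blocks by role list from top to bottom: spindle and cytokinesis, cilium and flagellum, cargo, other) in each named class (columns, control left and ZEA right of the white line), as log10(CPM + 1). KIF5C was brightest in the spermatid-like columns of both libraries, and KIF1C was near 0 in the spermatid-like columns (1.37 CPM or less) and bright in the vascular ones (72.0 CPM in endothelial-like cells).

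Of the 38 kinesins, 28 had at least 200 UMIs over both libraries and the other 10 had fewer. KIF12 was nearly absent, with 0 control and 3 ZEA UMIs. KIF7, a regulator of Hedgehog signalling at the cilium tip, had 2 and 36 UMIs, and KIFC2, a motor moving towards microtubule minus ends, had 25 and 6. The other 7 of these 10 members had 109 to 199 UMIs over both libraries. In the control library, 35 members had at least 50 UMIs. Over classes of at least 50 cells, 15 of these 35 were highest in a spermatid-like class, 16 in late spermatocyte-like cells and 4 in Sertoli-like cells. Of these 4, KIF1C, KIF24 and KIF13B rested on 1, 3 and 3 Sertoli-like UMIs, with intervals that overlapped the next class. KIF21A had 10 UMIs there, with intervals apart. For 21 of the 35 the interval of the highest class did not overlap that of the next. Such counts were not made over all genes, so those given here cannot be read as particular to kinesins. When the 35 spermatogonia-like cells were admitted as a class, they held the highest value of 17 of the 35 members, 6 of these with intervals apart, and only KIF21A stayed highest in Sertoli-like cells. In the ZEA library, 33 members had at least 50 UMIs, of which 18 were highest in a spermatid-like class, 9 of them with intervals apart, and 15 in a somatic class, 0 of them with intervals apart. In the RefSeq annotation of the ARS-UI_Ramb_v3.0 assembly, 37 of the 38 symbols were found, and 12 of these genes overlap another gene, among them KIF9, KIF2A, KIF20A, KIF24 and KIF5B. The sources used here do not say whether counting used strand, so reads of such pairs may not be told apart.

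KIF5C, a heavy chain of kinesin-1, the cargo motor that pairs with kinesin light chains, gave 39.3% of control and 39.9% of ZEA kinesin UMIs. In the control library it stood at 403 CPM (331 to 486) in spermatogonia-like, 114 CPM (108 to 119) in late spermatocyte-like, 1479 CPM (1461 to 1498) in round spermatid-like and 1784 CPM (1764 to 1805) in elongating spermatid-like cells. The level in round spermatid-like cells was thus higher than that of late spermatocyte-like cells by 3.70 on the log2 scale (3.63 to 3.78). At least 1 KIF5C UMI was counted in 98.7% of control round spermatid-like and 68.7% of late spermatocyte-like cells. After each cell was thinned to 500 UMIs, these shares were 50.5% (47.6 to 53.4) and 5.09% (3.88 to 6.54), so the stages also parted at equal depth. For the ZEA library, KIF5C stood at 1362 CPM (1329 to 1395) in round and 3804 CPM (3726 to 3884) in elongating spermatid-like cells. Both libraries thus had their highest KIF5C level in elongating spermatid-like cells.

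The spindle and cytokinesis motors were mostly high before the spermatid stages and near the floor in them. Over all genes compared between control round spermatid-like and late spermatocyte-like cells, 30.6% were at least 2-fold higher and 38.1% at least 2-fold lower in the round cells, with a median log2 ratio of -0.51. Of the 38 kinesins, 27 entered this comparison, 8 were at least 2-fold higher and 14 at least 2-fold lower, with a median of -1.0. Entering means at least 50 UMIs over the 2 sums together and detection in 5% of the cells of at least 1 side. Only where whole classes were compared between the libraries was a level of at least 25% of the gene's highest class also asked for. The comparisons of stages, of single clusters and of endothelial-like cells had no such rule against free RNA. Of the 11 spindle and cytokinesis motors, 8 entered, 6 were at least 2-fold lower and 1 at least 2-fold higher, with a median of -2.66. Of these 6, KIF23, KIF18A, KIF22, KIF4A and KIF20A passed the 5% limit only through late spermatocyte-like cells, in which they were higher. The same holds for KIF24, another of the 14 lower kinesins. Their place past 2-fold thus follows from the filter and is not support for a difference. Free RNA was not modelled, and its part in levels of a few CPM in spermatids was not tested.

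KIF23, which forms the centralspindlin complex of the dividing cell's midzone with RACGAP1, had 81.4 CPM (51.0 to 123) in spermatogonia-like and 72.0 CPM (67.6 to 76.6) in late spermatocyte-like cells. In round and elongating spermatid-like cells it had 2.49 CPM (1.80 to 3.37) and 2.68 CPM (1.95 to 3.60). The log2 ratio of round spermatid-like to late spermatocyte-like cells was -4.85 (-5.33 to -4.41). Its partner RACGAP1 had 107, 97.5, 4.39 and 3.47 CPM over the same 4 classes, likewise high before the spermatid stages and low in them. KIF18A, which dampens chromosome movements at the metaphase plate, had 25.9 CPM (10.4 to 53.4) in spermatogonia-like cells, 51.2 CPM (47.4 to 55.1) in late spermatocyte-like cells, 1.60 CPM in round and 0.97 CPM in elongating spermatid-like cells. Its log2 ratio of round spermatid-like to late spermatocyte-like cells was -5.00 (-5.61 to -4.44), the lowest of the 27 members that entered.

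KIF20B, a kinesin-6 of the last step of cell division, had 222 CPM (169 to 286) in spermatogonia-like, 69.1 CPM (64.8 to 73.6) in late spermatocyte-like, 4.45 CPM in round and 2.5 CPM in elongating spermatid-like cells. KIF22, a motor that sits on chromosome arms, had 126 CPM (87.1 to 176), 18.4 CPM (16.2 to 20.8), 2.43 CPM and 1.40 CPM over these classes. KIF4A, another chromosome-arm motor, which binds PRC1 at the midzone, had 62.9 CPM (36.6 to 101), 15.5 CPM (13.5 to 17.7), 2.91 CPM and 0.792 CPM. For KIF20B, KIF22 and KIF4A the spermatogonia-like level lay above the late spermatocyte-like level with intervals that did not overlap, on 60, 34 and 17 spermatogonia-like UMIs. PRC1 itself had 185 CPM (137 to 244) in spermatogonia-like and 304 CPM (295 to 313) in late spermatocyte-like cells, so it did not share that order. KIF20A, which brings the chromosomal passenger complex to the midzone, had 22.2 CPM (8.15 to 48.3) and 4.80 CPM (3.71 to 6.10), and KIFC1, a minus-end motor that focuses spindle poles, 25.9 CPM (10.4 to 53.4) and 3.20 CPM (2.32 to 4.29). These 2 rest on 6 and 7 spermatogonia-like UMIs.

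The late spermatocyte-like class joined a cluster led by AURKA, a kinase of cell division (cluster 6, 968 control cells), and a cluster led by PIWIL1 and TEX101, which mark meiotic prophase cells (cluster 12, 152 control cells). Over all genes, 8.94% were at least 2-fold higher and 12.3% at least 2-fold lower in cluster 6, against 3 and 3 of 25 kinesins. KIF4A was the most unequal member, with 3 UMIs (1.20 CPM, 0.248 to 3.51) in cluster 12 and 210 UMIs (18.6 CPM, 16.2 to 21.3) in cluster 6. With 3 UMIs in 152 cells, KIF4A passed the limit on the share of cells only through cluster 6, in which it was higher. That place past 2-fold thus follows from the filter and is not support for a difference. KIF25, a minus-end-family motor of less settled role, was also higher in cluster 6, with 24.0 CPM (18.3 to 30.9) in cluster 12 and 53.1 CPM (48.9 to 57.5) in cluster 6. KIF22 went the other way, with 46.5 CPM (38.4 to 55.7) in cluster 12 and 12.2 CPM (10.2 to 14.4) in cluster 6. KIF15 was likewise higher in cluster 12, with 74.9 and 32.8 CPM, and KIF14 with 7.21 and 3.20 CPM. KIF14 passed the limit on the share of cells only through cluster 12, so its place past 2-fold also follows from the filter. KIF23, KIF18A and KIF20B were higher in cluster 6 by less than 2-fold, with log2 ratios of 0.70, 0.54 and 0.50.

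Another 3 members of the spindle list did not follow it, and their highest or near-highest levels were in spermatids. KIF15, which helps to keep the spindle bipolar and is recruited by TPX2, had 240 CPM (186 to 307) in spermatogonia-like, 40.5 CPM (37.2 to 44.0) in late spermatocyte-like, 242 CPM (235 to 250) in round and 188 CPM (182 to 195) in elongating spermatid-like cells. TPX2 had 240 CPM in spermatogonia-like and 160 CPM in late spermatocyte-like cells but 6.41 and 5.30 CPM in the 2 spermatid classes. KIF15 thus stood lower than TPX2 in late spermatocyte-like cells and higher than TPX2 in both spermatid classes. KIF2C, which takes apart microtubule ends at centromeres, had 270 CPM (212 to 340), 111 CPM (105 to 117), 142 CPM (136 to 148) and 398 CPM (388 to 407) over the same 4 classes. KIF18B, which limits the length of astral microtubules, had 2.33 CPM (1.59 to 3.28) in late spermatocyte-like and 0.95 CPM (0.543 to 1.54) in round spermatid-like cells, then 14.2 CPM (12.4 to 16.1) in elongating spermatid-like cells. For KIF2C and KIF18B the interval in elongating spermatid-like cells lay above that of the class with the next highest level among control classes of at least 50 cells.

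**Figure D2:**
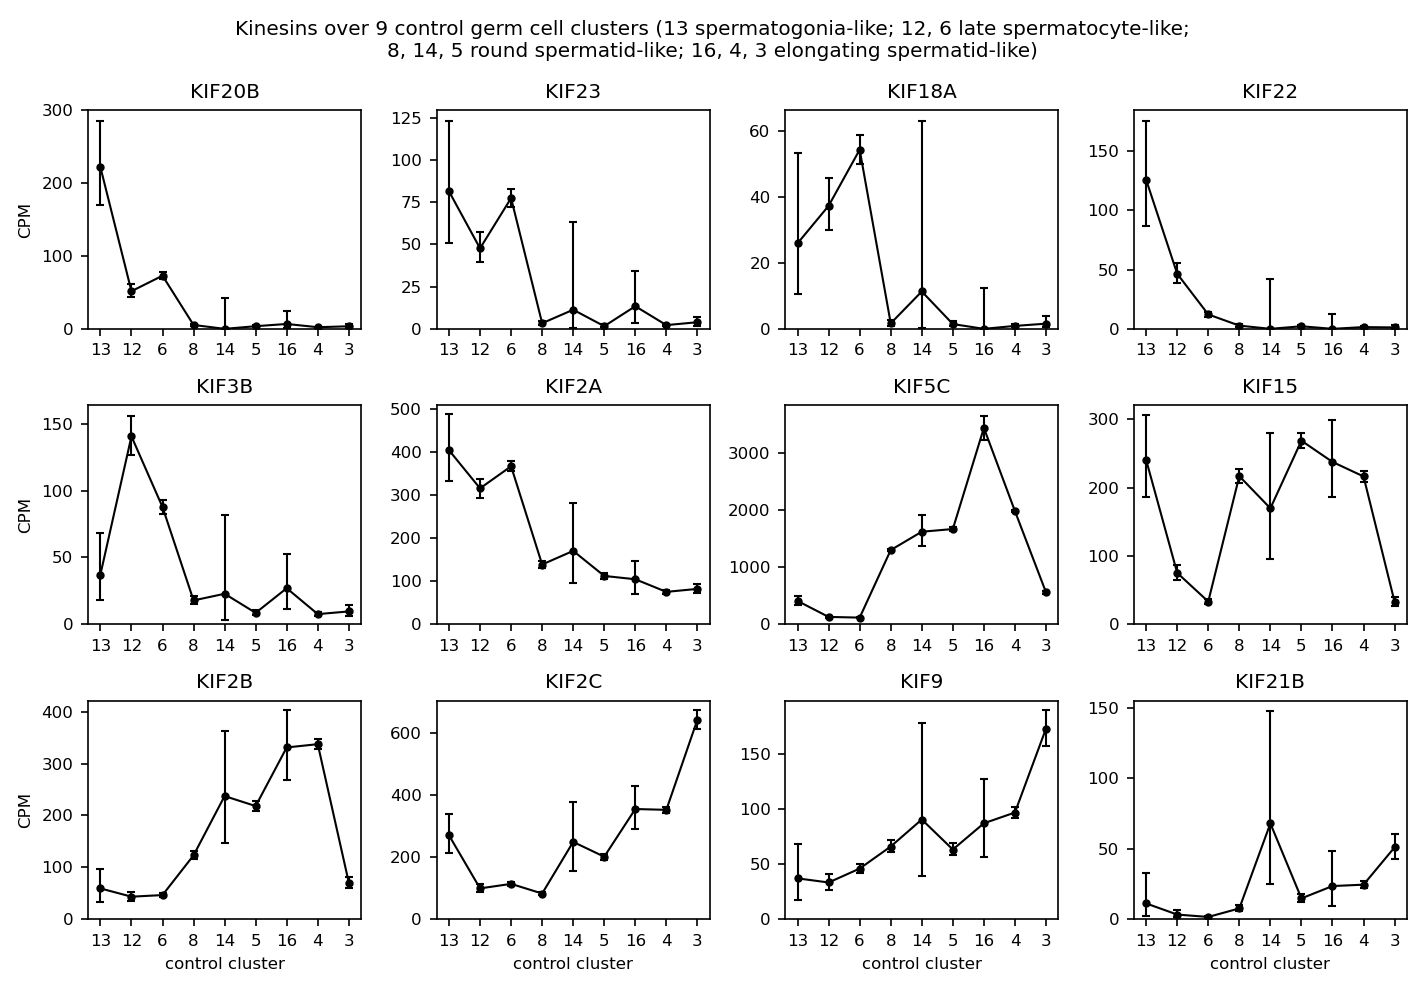
Level in CPM (vertical axis, from 0, with its own scale in each panel) of 12 kinesins in 9 control germ cell clusters (horizontal axis, arranged by class and, among the spermatid-like clusters, by TNP1 level); points are UMI sums and bars exact 95% Poisson intervals. KIF20B, KIF23, KIF18A and KIF22 stood at 13.4 CPM or less from cluster 8 on, KIF5C was highest in cluster 16, and KIF2C and KIF9 were highest in cluster 3; the long bars in clusters 14 and 16 come with few UMIs.

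The control library had 6 spermatid-like clusters of at least 50 cells, and TNP1, a protein that replaces histones in elongating spermatids, stood at 395, 611, 766, 1362, 1995 and 2386 CPM in clusters 8, 14, 5, 16, 4 and 3. Clusters 14 and 16 were small, with 63 and 236 control cells, so their values have wide intervals. KIF2C had 82.4 CPM (76.4 to 88.7) in cluster 8, 201 CPM (192 to 211) in cluster 5, 352 CPM (342 to 362) in cluster 4 and 643 CPM (612 to 675) in cluster 3. Over these 4 larger clusters it followed the TNP1 order with intervals apart. In cluster 14 KIF2C had 249 CPM (156 to 377), above the value of cluster 5 with an interval that includes it, and in cluster 16 it had 355 CPM (291 to 429), close to cluster 4. KIF21B, a kinesin-4 that regulates microtubule growth, had 7.58, 14.7, 24.4 and 50.9 CPM in clusters 8, 5, 4 and 3. It also did not keep the order with the small clusters, at 67.9 CPM (24.9 to 148) in cluster 14 and 23.4 CPM in cluster 16, on 6 and 7 UMIs. KIF9, a motor of the motile axoneme, had 65.9, 90.5, 63.2, 87.0, 96.8 and 173 CPM from cluster 8 to cluster 3 in the TNP1 order, and its interval in cluster 3 lay above those of clusters 8, 5, 16 and 4. KIF17, a motor of cilia that is also known to move a transcriptional coactivator in spermatids, had 70.4, 45.2, 73.2, 151, 87.2 and 133 CPM.

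Another 4 spermatid members were lower in cluster 3 than in cluster 4. KIF2B, a relative of KIF2C that also shortens microtubules, had 123 CPM (116 to 131), 238 CPM (147 to 363), 218 CPM (208 to 229), 331 CPM (269 to 403), 338 CPM (328 to 348) and 70.5 CPM (60.5 to 81.5) in clusters 8, 14, 5, 16, 4 and 3. KIF5C had 1296, 1617, 1664, 3438, 1979 and 555 CPM in that order, so its highest control level was in cluster 16 (3231 to 3655). KIF15 had 217, 170, 269, 238, 216 and 32.5 CPM. KIFC3, a minus-end motor of Golgi and junctions, had 49.4, 33.9, 51.9, 16.7, 41.5 and 12.9 CPM, on 3 UMIs in cluster 14 and 5 in cluster 16. Between clusters 3 and 4, 27.2% of all genes were at least 2-fold lower and 5.33% at least 2-fold higher in cluster 3, against 6 and 1 of 21 kinesins. The higher one was KIF21B, with a log2 ratio of 1.06 (0.76 to 1.36), and KIF2C stood at 0.87 (0.79 to 0.95). The lowest were KIF15 at -2.74, KIF2B at -2.26 and KIF5C at -1.83. KIFC3 passed the 5% limit only through cluster 4, in which it was higher, so its place past 2-fold follows from the filter. Cluster 3 cells were shallower, with a median of 2569 UMIs against 12844 in cluster 4, and the part of depth in these differences was not tested.

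Cilium and flagellum motors did not move as a block. KIF3A and KIF3B are the 2 motor subunits of heterotrimeric kinesin-2, which carries material along growing cilia and tails. KIF3A was within 103 to 157 CPM in the 4 control germ classes, with 122, 157, 103 and 146 CPM in spermatogonia-like, late spermatocyte-like, round and elongating spermatid-like cells. KIF3B had 37.0 CPM (17.7 to 68.0), 97.2 CPM (92.1 to 103), 13.1 CPM (11.4 to 14.9) and 8.04 CPM (6.73 to 9.54), a log2 ratio of -2.90 (-3.11 to -2.69) between round spermatid-like and late spermatocyte-like cells. The third subunit, the adaptor KIFAP3, was higher in the spermatid classes, where KIF3B was lower, with 77.7, 50.2, 186 and 162 CPM over those 4 classes. KIF3C, the alternative partner of KIF3A, had 74 control UMIs in all, 43 of them in round spermatid-like cells (2.55 CPM, 1.85 to 3.44).

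KIF27, a relative of KIF7 known for motile cilia, had 237, 184, 461 and 508 CPM over the same 4 control classes. It was counted in 95.9% of control round spermatid-like cells, and in 20.7% (18.4 to 23.1) after thinning to 500 UMIs. KIF9 had 43.6 CPM (40.2 to 47.2) in late spermatocyte-like, 64.7 CPM (60.9 to 68.6) in round and 109 CPM (104 to 114) in elongating spermatid-like cells. KIF6, the close relative of KIF9, ran the other way with 25 CPM (22.4 to 27.8), 12.5 CPM (10.8 to 14.3) and 5.85 CPM (4.74 to 7.14). KIF24, which trims microtubules at the mother centriole and holds back cilium growth, had 14.5 CPM (12.6 to 16.7), 3.03 CPM (2.25 to 3.98) and 0.792 CPM (0.422 to 1.35). KIF19, which shortens the microtubules at cilium tips, had 1.74, 2.20 and 1.16 CPM, with intervals that overlapped between neighbouring stages.

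The cargo motors split. Of 12 cargo members, 9 entered the comparison of round spermatid-like with late spermatocyte-like cells, and 5 were at least 2-fold higher and 3 at least 2-fold lower, where 30.6% of all genes were higher and 38.1% lower. The lower share was thus near that of all genes. Besides KIF5C, the higher ones were KIF13A (2.18 to 17.2 CPM), a motor of endosomal vesicles, KIF1A (2.76 to 21.0 CPM), known for carrying synaptic vesicle precursors, KIF21B (1.82 to 11.5 CPM) and KIFC3 (10.2 to 50.5 CPM). KIF13A, KIF1A and KIF21B passed the 5% limit only through round spermatid-like cells, in which they were higher. Their place among the higher members thus follows from the filter and is not support for a difference. KIF5B, the widely expressed kinesin-1 heavy chain, had 640 CPM (548 to 743) in spermatogonia-like, 171 CPM (164 to 178) in late spermatocyte-like, 42.6 CPM (39.6 to 45.8) in round and 13.1 CPM (11.4 to 15) in elongating spermatid-like cells. From late spermatocyte-like cells on, KIF5B was lower at each step and its paralog KIF5C higher. KIF5A, the neuronal kinesin-1 heavy chain, had 12.8 CPM (11.0 to 14.8), 5.04 CPM (4.03 to 6.24) and 9.02 CPM (7.62 to 10.6) from late spermatocyte-like to elongating spermatid-like cells. KLC3, a kinesin light chain of the sperm tail, had 8.57 CPM in late spermatocyte-like, 20.7 CPM in round and 140 CPM (134 to 146) in elongating spermatid-like cells.

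KIF1B, which carries mitochondria and vesicles, was lower with stage, with 70.3 CPM (42.3 to 110), 49.2 CPM (45.6 to 53.0), 19.3 CPM (17.2 to 21.5) and 15 CPM (13.2 to 17.0) over the 4 control germ classes. KIF13B, a carrier of membrane scaffold proteins, had 40.7, 19.4, 12.5 and 6.52 CPM. Of the remaining members, KIF2A, a microtubule shortener of spindle poles and other cells, had 403 CPM (331 to 486), 357 CPM (347 to 367), 125 CPM (120 to 131) and 76.1 CPM (71.9 to 80.4), and KIF2B 59.2, 45.8, 171 and 296 CPM. The 3 kinesin-13 genes thus showed different orders, since KIF2A was highest before the spermatid stages and KIF2B and KIF2C in elongating spermatid-like cells. KIF25 had 7.4 CPM (0.896 to 26.7), 47.8 CPM (44.2 to 51.6), 18.3 CPM (16.4 to 20.5) and 10.7 CPM (9.14 to 12.4).

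From round to elongating spermatid-like cells in the control library, 10.5% of all genes were at least 2-fold higher and 32.1% at least 2-fold lower. Of 22 kinesins that entered, 3 were at least 2-fold higher and 3 at least 2-fold lower, with a median log2 ratio of -0.25 beside -0.54 over all genes. The higher ones were KIF18B at 3.90 (3.17 to 4.73), KIF2C at 1.49 (1.42 to 1.56) and KIF21B at 1.32 (1.07 to 1.57). The lower ones were KIF5B at -1.70, KIF13A at -1.62 and KIF6 at -1.09. KIF18B passed the 5% limit only through elongating spermatid-like cells, in which it was higher. KIF13A and KIF6 passed it only through round spermatid-like cells, in which they were higher. For KIF18B, KIF13A and KIF6 the place past 2-fold thus follows from the filter and is not support for a difference. The ZEA library, whose cells come from other clusters, showed the same direction for all 6 members. From round to elongating spermatid-like cells of the ZEA library KIF18B went from 0.810 to 26.5 CPM, KIF2C from 62.0 to 394 CPM and KIF21B from 8.10 to 27.3 CPM. In the same step KIF5B went from 87.7 to 14.9 CPM, KIF13A from 38.9 to 10.2 CPM and KIF6 from 18.2 to 3.84 CPM, and the counting intervals of each pair were apart.

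Among pathway lists, the 12 mitotic kinesin partners had 0 higher and 10 lower members from late spermatocyte-like to round spermatid-like cells, with a median of -2.64, where 30.6% of all genes were higher and 38.1% lower with a median of -0.51. Of the 20 intraflagellar transport genes, whose products form the trains that kinesin-2 pulls, 19 entered the step to elongating spermatid-like cells and 11 were at least 2-fold lower and 0 higher, with a median of -1.09, where 32.1% of all genes were lower and 10.5% higher with a median of -0.54.

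Somatic kinesins could be described mainly in the ZEA library. KIF5B stood at 429 CPM (414 to 443) in endothelial-like, 442 CPM (316 to 601) in lymphatic endothelial-like, 314 CPM (282 to 349) in peritubular myoid-like, 269 CPM (231 to 311) in perivascular-like, 169 CPM (115 to 240) in leukocyte-like and 166 CPM (134 to 203) in stromal fibroblast-like cells. In the ZEA spermatid-like classes, round and elongating, it had 87.7 CPM (79.6 to 96.4) and 14.9 CPM (10.4 to 20.8). After thinning to 500 UMIs, a KIF5B UMI was found in 17.9% (16.3 to 19.5) of endothelial-like and 3.19% (2.04 to 4.75) of round spermatid-like cells. KIF1C, a motor of vesicles and mRNAs in migrating cells, had the largest ratio between these groups. It had 547 UMIs in endothelial-like cells (72.0 CPM, 66.1 to 78.3) and 5 UMIs in round spermatid-like cells (1.01 CPM, 0.329 to 2.36), and 28.3 to 99.4 CPM in the other somatic classes of the ZEA library. In the control library KIF1C had 12 UMIs in spermatogonia-like cells (44.4 CPM, 22.9 to 77.6) and 1 UMI in late spermatocyte-like cells.

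Between ZEA endothelial-like and round spermatid-like cells, 34.2% of all genes were at least 2-fold higher and 43.6% at least 2-fold lower in the endothelial-like cells. Of 23 kinesins that entered, 3 were at least 2-fold higher and 15 at least 2-fold lower. The higher ones were KIF1C at a log2 ratio of 6.15 (4.92 to 7.78), KIF20B at 2.5 (2.07 to 2.95) and KIF5B at 2.29 (2.14 to 2.44). KIF1C passed the 5% limit only through endothelial-like cells, in which it was higher. Its place among the higher members thus follows from the filter and is not support for a difference. KIF20B had 56.0 CPM (50.8 to 61.6) in endothelial-like and 71.3 CPM (52.5 to 94.5) in perivascular-like cells, beside 9.93 CPM (7.34 to 13.1) in the round spermatid-like class. KIF23, KIF22, KIF18A and KIF4A stood lower than KIF20B in both classes. KIF23 had 3.44 CPM (2.01 to 5.51) in ZEA round spermatid-like, 5.79 CPM (4.21 to 7.77) in endothelial-like and 14.8 CPM (7.12 to 27.3) in perivascular-like cells, so its perivascular-like interval also lay above the round one, on 10 UMIs. KIF22 had 1.01 CPM (0.329 to 2.36), 5.39 CPM (3.87 to 7.32) and 14.8 CPM (7.12 to 27.3) in the same 3 classes. KIF18A had 2.03, 3.29 and 7.42 CPM with intervals that overlapped between neighbours, and KIF4A 8.71, 2.63 and 2.97 CPM. KIF1B had 62.2 CPM (56.7 to 68.1), KIF13B 40.0 CPM (35.6 to 44.8) and KIF13A 43.5 CPM (39.0 to 48.5) in endothelial-like cells, and KIF13A had 76.2 CPM (60.8 to 94.4) in peritubular myoid-like cells. KIF21A, a regulator of microtubule growth, had 10 UMIs (66.8 CPM, 32.0 to 123) in the control Sertoli-like class and 55 UMIs (69.2 CPM) in unnamed cluster 24 of the ZEA library, with at most 9.40 CPM in the spermatid-like classes. That unnamed cluster also held 22 of the 60 ZEA UMIs of KIF14, a cytokinesis motor (27.7 CPM).

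**Figure D3:**
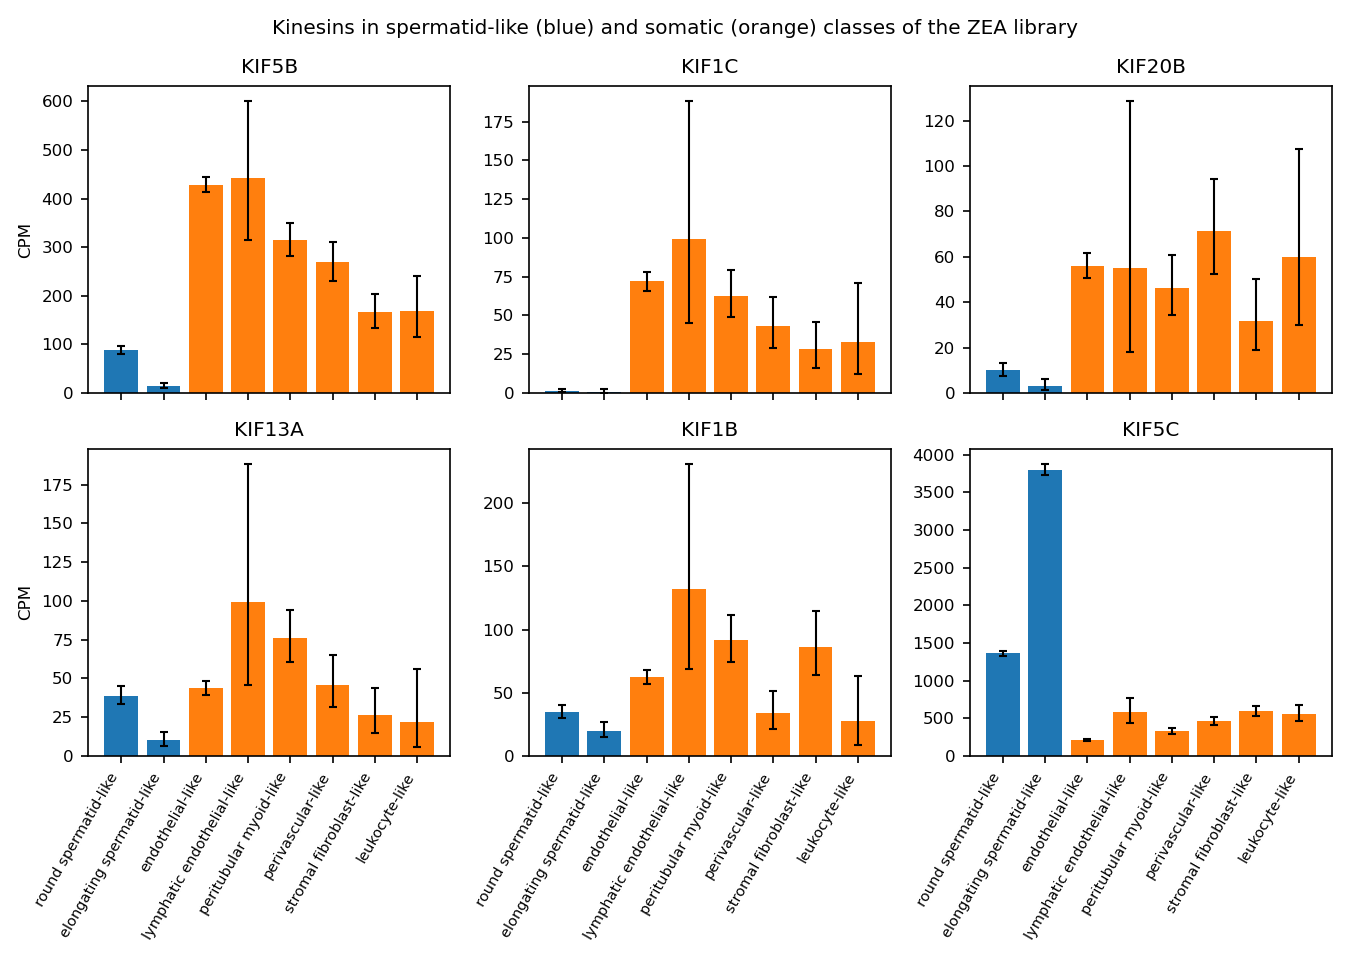
Level in CPM (bars from 0, with exact 95% Poisson intervals) of 6 kinesins in 2 spermatid-like classes (blue) and 6 somatic classes (orange) of the ZEA library. KIF5B and KIF1C stood higher in each somatic class than in both spermatid-like classes, and KIF5C was highest in elongating spermatid-like cells at 3804 CPM.

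Spermatid kinesins were also counted in somatic cells, where RNA released by spermatids can be captured. KIF5C in endothelial-like cells was 5.52% of its ZEA elongating spermatid-like level, beside 9.41% for TNP1 and 8.07% for HMGB4, a chromatin protein of spermatids. In ZEA leukocyte-like cells KIF5C reached 14.8% beside 27.4% for TNP1, and in control Sertoli-like cells 16.1% beside 23.5%. PRM3, another gene of spermatid chromatin, stood at 5.92% in endothelial-like cells. KIF2B, KIF2C and KIF9 there were at 8.73%, 9.11% and 11.8%. KIF9 stood above the spermatid genes in some other classes. It reached 62.4% in lymphatic endothelial-like cells (TNP1 22.9%, HMGB4 19.2%), on 5 UMIs, and 40.0% in stromal fibroblast-like cells (24.0% and 23.4%), on 20 UMIs. In control Sertoli-like cells it was at 43.1% (23.5% and 22.6%), on 7 UMIs. KIF17 also stood above TNP1, at 62.9% in control Sertoli-like and 72.1% in control leukocyte-like cells (TNP1 23.5% and 19.5%). Those classes had 113 and 45 cells. KIF27 reached 46.1% in control leukocyte-like cells. In ZEA leukocyte-like cells KIF17 stood lower than TNP1, at 16.9% beside 27.4%. The part of released RNA in these somatic values was not tested. KIF5B, KIF20B and KIF2A stood far above the spermatid genes, at 2867%, 1875% and 101% of the elongating spermatid-like level in endothelial-like cells. KIF27 and KIF15 lay between, at 17.4% and 16.9%, and KIF3A at 30.6%.

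The ZEA and control libraries could be compared in the round and elongating spermatid-like classes. In the round class, 14.9% of all 6380 genes that entered were at least 2-fold higher and 8.28% at least 2-fold lower in the ZEA library, with a median log2 ratio of 0.22. Of the 38 kinesins, 22 entered, 5 were at least 2-fold higher and 1 at least 2-fold lower, and the median was 0.55, with 14 members above 0 and 8 below. Scaling by the median of gene ratios took 0.22 off every value and left 3 higher and 2 lower. The cells compared came from different clusters. The control cells lay mostly in clusters 8 and 5 (612 and 531 cells) and the ZEA cells in clusters 20 and 14 (422 and 293 cells), and median depths were 13142.5 and 6359 UMIs. A different mix of stages within the class cannot be told apart from a different level within a stage.

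The member lower in the ZEA library was KIF2C, with 2388 control UMIs (142 CPM, 136 to 148) and 306 ZEA UMIs (62.0 CPM, 55.2 to 69.3), a log2 ratio of -1.19 (-1.37 to -1.02). Within each library KIF2C also varied between clusters, with 82.4 and 201 CPM in control clusters 8 and 5, and 36.8 and 219 CPM in ZEA clusters 20 and 14. In cluster 14 alone, the only round spermatid-like cluster with at least 50 cells of each library, its log2 ratio was -0.18 (-0.84 to 0.54), on 22 control and 143 ZEA UMIs. It was -0.31 with equal weight per cell, -0.59 after thinning to 500 UMIs and -1.54 in cells with at least 5000 UMIs. In the round class KIF2B stood at 171 CPM (164 to 177) for the control and 97.4 CPM (88.9 to 107) for ZEA, a log2 ratio of -0.81 (-0.95 to -0.67), and -0.21 (-0.88 to 0.53) in cluster 14.

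The 5 higher members had at most 17.2 CPM in the control round spermatid-like class. KIF19, KIF24 and KIF4A were counted in 2.98%, 4.14% and 3.97% of control and 5.14%, 6.25% and 5.97% of ZEA cells. These 3 passed the 5% limit only through the library in which they were higher, so their place among the higher members follows from the filter and is not support for a difference. KIF19 had 37 control UMIs (2.20 CPM, 1.55 to 3.03) and 40 ZEA UMIs (8.10 CPM, 5.79 to 11.0), a log2 ratio of 1.88 (1.20 to 2.57). KIF24 had 3.03 CPM (2.25 to 3.98) and 9.72 CPM (7.17 to 12.9), a ratio of 1.68 (1.08 to 2.28), which was 0.84 with equal weight per cell. KIF4A had 2.91 CPM (2.15 to 3.84) and 8.71 CPM (6.30 to 11.7), a ratio of 1.58 (0.96 to 2.20). KIF13A had 17.2 CPM (15.3 to 19.3) and 38.9 CPM (33.6 to 44.8), a ratio of 1.18 (0.91 to 1.44), and KIF3B 13.1 CPM (11.4 to 14.9) and 29.0 CPM (24.4 to 34.1), a ratio of 1.15 (0.84 to 1.46). Within the control library KIF24, KIF4A and KIF3B were at least 2-fold higher in late spermatocyte-like than in round spermatid-like cells, and KIF13A was lower. In that step KIF24, KIF4A and KIF13A passed the 5% limit only through the class in which they were higher. For KIF3B, 139 of the 143 ZEA UMIs lay in cluster 20 (32.8 CPM) and 2 in cluster 14 (3.07 CPM). Too few UMIs of these 5 members lay in cluster 14 for them to enter there.

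The other 16 members that entered in round spermatid-like cells lay within 2-fold. Of the members left out by the entry rules, KIF5B had 42.6 and 87.7 CPM, a ratio of 1.04 (0.87 to 1.22), and KIF20B 4.45 and 9.93 CPM, a ratio of 1.16 (0.61 to 1.70). Both were under 25% of their highest class. KIF26B, a kinesin with an atypical motor domain, was past 2-fold at 1.65 (0.32 to 2.95), on 12 and 11 UMIs. The ratios of KIF14, KIFC1, KIF22 and KIF21A were also past 2-fold, with counting intervals that included 0. KIF13B was just inside at 0.99 (0.65 to 1.32), followed by KIF1B at 0.86, KIF2A at 0.77 (0.66 to 0.88), KIF3A at 0.56 and KIF9 at 0.55 (0.39 to 0.71). KIF5C had 1479 and 1362 CPM, a ratio of -0.12 (-0.16 to -0.08), and KIF27, KIF15 and KIF17 lay at 0.10, -0.05 and -0.08. In cluster 14, where 8 members entered, KIF3A was at 1.32 (0.30 to 2.56) and KIF15 at 1.15 (0.40 to 2.01), on 8 and 15 control UMIs, and KIF5C at 0.44 (0.19 to 0.70). KIF2A turned to -0.30 (-1.10 to 0.60) there. In that cluster 9.98% of all genes were at least 2-fold higher and 5.37% at least 2-fold lower, against 2 and 0 of the 8 kinesins.

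In elongating spermatid-like cells, 8.84% of 4210 genes were at least 2-fold higher and 4.44% at least 2-fold lower in the ZEA library, with a median log2 ratio of 0.12. Of 15 kinesins that entered, 1 was at least 2-fold higher and 0 were lower, with a median of 0.24. That member was KIF5C, with 29280 control UMIs (1784 CPM) and 8908 ZEA UMIs (3804 CPM), a log2 ratio of 1.09 (1.06 to 1.13). The control cells lay in clusters 4, 3 and 16 (1005, 763 and 236 cells) and 946 of the 1014 ZEA cells in cluster 16. Within cluster 16, KIF5C stood at 3438 control and 4000 ZEA CPM, a ratio of 0.22 (0.12 to 0.31). The ratio was 0.54 (0.47 to 0.62) in deeper cells of 5000 UMIs or more, 52 of them from ZEA, and after thinning 1.30 (1.21 to 1.40). A KIF5C UMI was found in 82.3% (79.9 to 84.6) of ZEA and 47.8% (45.5 to 49.97) of control elongating spermatid-like cells at 500 UMIs per cell. The part of the cluster mix in the class value was not tested beyond these values.

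**Figure D4:**
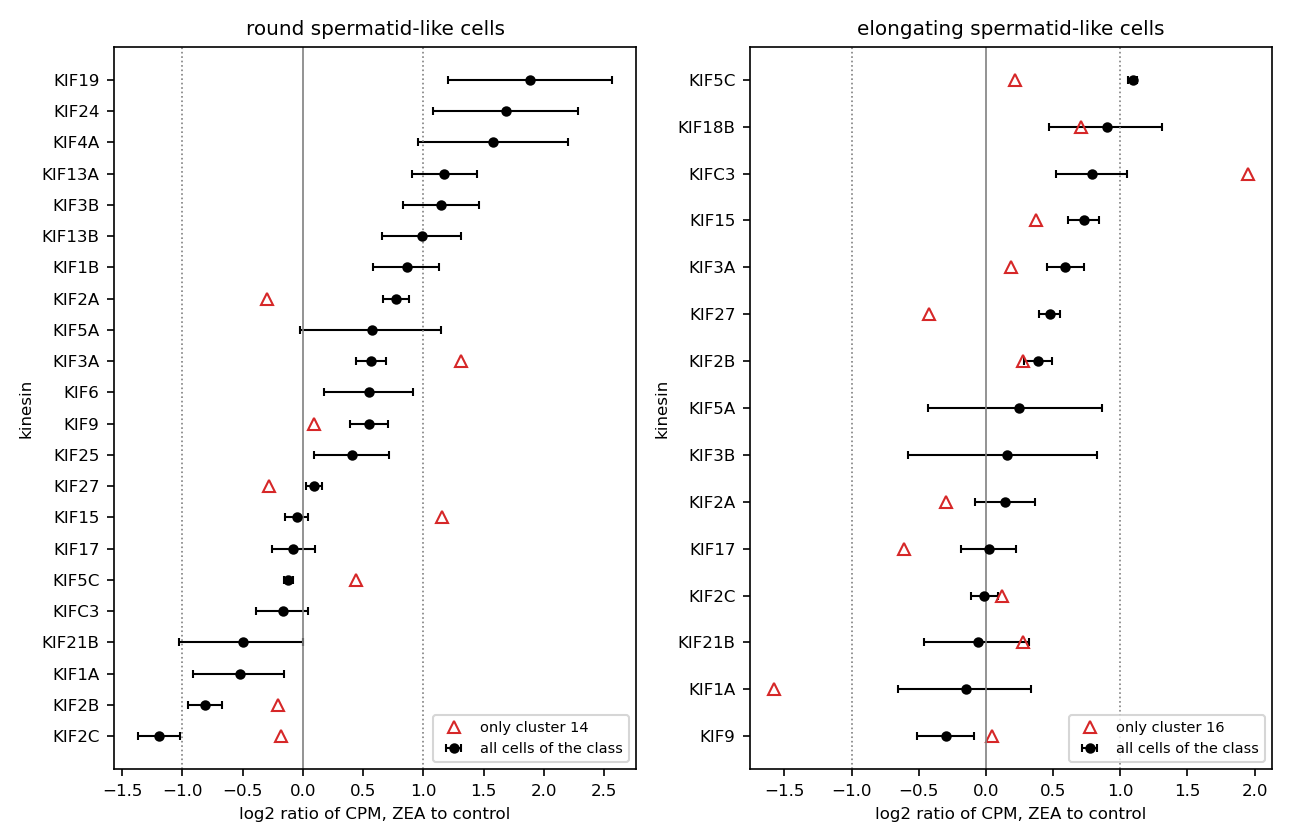
Log2 ratio of ZEA to control CPM (horizontal axis) of the kinesins that entered, in round (left, 22 members) and elongating (right, 15 members) spermatid-like cells; black points are the whole class with exact 95% intervals, red triangles the value within cluster 14 or 16, and dotted lines 2-fold. KIF2C on the left moves from -1.19 to -0.18 and KIF5C on the right from 1.09 to 0.22 when only the shared cluster is used.

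The other 14 members that entered in elongating spermatid-like cells lay within 2-fold. Among those that did not enter, KIF21A had 38 control UMIs (2.32 CPM, 1.64 to 3.18) and 22 ZEA UMIs (9.40 CPM, 5.89 to 14.2), a ratio of 2.02 (1.19 to 2.82), and was counted in 1.85% and 1.97% of cells. KIF4A stood at 1.11 (-0.97 to 2.80), on 13 and 4 UMIs. KIF18B had 14.2 and 26.5 CPM (0.90, 0.47 to 1.31), KIFC3 36.6 and 63.2 CPM (0.79, 0.52 to 1.05), KIF15 188 and 311 CPM (0.73, 0.61 to 0.84) and KIF3A 146 and 220 CPM (0.59, 0.45 to 0.73). KIF27 had 508 and 706 CPM (0.47, 0.40 to 0.55), and KIF2B 296 and 387 CPM (0.39, 0.28 to 0.49). KIF2C, the lower member of the round cells, had 398 and 394 CPM here (-0.01, -0.11 to 0.09). That ratio changed with the depth setting. It was -0.54 (-0.79 to -0.29) after thinning to 500 UMIs and 0.44 (0.26 to 0.62) in cells with at least 5000 UMIs. KIF9 was lower in the ZEA library, with 109 and 88.4 CPM (-0.30, -0.51 to -0.09). In cluster 16, 6.62% of all genes were at least 2-fold higher and 14.6% at least 2-fold lower, against 1 and 1 of 13 kinesins. These were KIFC3 at 1.95 (0.69 to 3.60), on 5 control and 135 ZEA UMIs, and KIF1A at -1.58 (-2.49 to -0.60), on 15 and 35 UMIs. With 236 control and 946 ZEA cells there, each passed the 5% limit only through the library in which it was higher. Their place past 2-fold thus follows from the filter and is not support for a difference. KIF27 turned to -0.42 (-0.61 to -0.24) in cluster 16.

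Clusters 0 and 1 were the only unnamed clusters with at least 50 cells of each library. In cluster 0 (1506 control and 114 ZEA cells), 10.2% of all genes were at least 2-fold higher and 11.3% at least 2-fold lower in ZEA cells, against 2 and 1 of 13 kinesins. The lower one was KIF6 at -1.32 (-4.38 to 0.58), on 89 control and 2 ZEA UMIs. With 2 UMIs in 114 ZEA cells, KIF6 passed the limit on the share of cells only through the control library, in which it was higher. Its place past 2-fold thus follows from the filter and is not support for a difference. The higher ones were KIF9 at 1.37 (0.64 to 2.04), on 21 ZEA UMIs, and KIF5C at 1.14 (0.89 to 1.37), with 665 control and 1461 ZEA CPM. In cluster 1 (217 control and 1190 ZEA cells), the shares over all genes were 9.12% higher and 7.89% lower, against 0 and 0 of 9 kinesins, and KIF5C stood at 0.44 (0.22 to 0.67).

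The genes that work with kinesins gave the following values between the libraries. Of 13 kinesin light chain and adaptor genes, 5 entered in round spermatid-like cells, 0 were at least 2-fold higher (14.9% of all genes) and 1 at least 2-fold lower (8.28% of all genes), MAPK8IP1, a scaffold that links kinesin-1 to its cargo, at -1.58 (-1.88 to -1.28). KLC4, a light chain, stood at 0.72. In elongating spermatid-like cells 5 entered and 0 passed 2-fold, with PLEKHM2, an adaptor for lysosomes, at -0.83, KLC4 at 0.62, KIFAP3 at 0.47 and KLC3 at 0.32. Of 12 mitotic partners, 6 entered in round cells and 0 passed 2-fold, with PRC1 at 0.98 (0.74 to 1.23) and BIRC5, of the chromosomal passenger complex, at 0.89. In elongating cells, where 8.84% of all genes were higher, 3 entered and INCENP, of the same complex, stood at 1.12, with the kinase PLK1 at -0.96.

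Dynein runs opposite to most kinesins. Of 20 dynein and dynactin genes, 16 entered in round spermatid-like cells and 3 were at least 2-fold higher, a share near the 14.9% of all genes, with DYNLRB2, a dynein light chain, at 1.93 (1.76 to 2.11) and DCTN3, of dynactin, at 1.79 (1.49 to 2.09). In elongating cells 12 entered and 1 was lower (4.44% of all genes), DYNLT1, a light chain, at -1.05, followed in size by DYNC2H1, the heavy chain of the dynein of cilia, at 0.68. Of 20 intraflagellar transport genes, 19 entered in round cells and 7 were at least 2-fold higher (14.9% of all genes), with a median of 0.91 beside 0.55 for kinesins and 0.22 for all genes. IFT80 was highest at 1.58 and IFT20 next at 1.30. In elongating cells 9 entered and 0 passed 2-fold, with a median of 0.53, IFT74 at 0.80 and WDR35 at 0.61. These lists were compared over the same clusters as the kinesins, so the same mix of cells stands behind them.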

How the data were processed

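Single testis cells of 2 libraries were profiled. The values are deposited UMI counts, raw and with no normalization, for each gene in each barcode. Cell Ranger 3.1.0 and STAR are named in the submitters' processing notes. Per the file headers, Cell Ranger 5.0.0 wrote the control matrix, while for ZEA the header has 3.1.0, and version and group cannot be told apart. The sources used here give no genome build. Before filtering there were 7030 control barcodes (53044981 UMIs) and 8809 ZEA barcodes (22148456 UMIs).

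Cells with at least 500 UMIs, at least 200 genes and at most 20% mitochondrial UMIs were kept, and Scrublet doublets left out (scanpy 1.11.5, seed 0). After scaling to 10000 per cell and taking logarithms, the 2000 most variable genes other than kinesins gave 30 principal components, 15 neighbours and Leiden clusters (resolution 1, igraph 0.11.9). The libraries were not integrated. Clusters were named from 16 marker lists where a list's mean standardized score reached 1 and exceeded the next list's by 0.2. At least 3 enriched markers (20 CPM and 1.5 times the other clusters) were also asked for. A cluster stayed unnamed where its leading genes pointed to a different type, but none of them had to come from the list that gave the name. Shallow clusters without a marker of their own among the 10 leading genes stayed unnamed. These criteria were set after the clusters had been seen, and the kinesins and gene lists were chosen with earlier results of these data known.

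Every kinesin with at least 200 UMIs is named with its values, and of each pathway list the 2 genes with the largest ratio and fixed partners. Intervals are exact at 95%: Poisson for CPM, Clopper-Pearson for shares, and conditional binomial for log2 ratios of CPM (scipy 1.17.1). They cover counting error only, not differences between animals. A sum of 0 was set to 3 counts in a ratio. The interval script was tested on simulated data. Alternatives changed the weight of cells, their depth, doublets, resolution, the variable genes, the scaling, the gene filters and the classes compared.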

Additional observations from a re-analysis of the deposited data

Results flagged for a closer look

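For 3 kinesins the log2 ratio of ZEA to control pointed one way in round and the other way in elongating spermatid-like cells, with both counting intervals apart from 0. With 1 library per group the difference between the classes was not tested. KIF5C, the kinesin-1 heavy chain of spermatids, stood at -0.12 in round and 1.09 in elongating cells. KIF2B, a microtubule-shortening kinesin, stood at -0.81 and 0.39. KIF9, a motor of the motile axoneme, stood at 0.55 and -0.30. In clusters 14 and 16, which both libraries share, KIF5C had ratios of 0.44 and 0.22, KIF2B -0.21 and 0.27, and KIF9 0.09 and 0.04. KIF5C and KIF9 thus did not keep opposite directions there, and the counting interval of KIF2B in cluster 14 included 0. After thinning to 500 UMIs per cell, KIF5C in round spermatid-like cells stood at 0.06 (-0.09 to 0.22).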

How the results depend on the processing

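No paired analysis was possible because each group has 1 library. The limit of all values is that single pair of libraries and, for rare classes, the number of UMIs. Of the values past 2-fold, 0 changed sign under the alternatives that gave a value. KIF15, at -0.05 in round spermatid-like cells, stood at 1.15 in cluster 14 alone. In round spermatid-like cells, where 14.9% of all genes were at least 2-fold higher and 8.28% lower in the ZEA library, 22 kinesins entered. Of these, 5 were at least 2-fold higher and 1 lower, with a median of 0.55. The higher count was 1 after thinning to 500 UMIs, 1 at Leiden resolution 0.5, 3 with scaling to the median gene ratio, 2 with at least 200 UMIs per gene and 2 in cluster 14 alone. The lower count was 0 with equal weight per cell, after thinning, at resolution 0.5 and in cluster 14, and 2 with scaling to the median gene ratio. Thinning left 7 members with a median of 0.064 and cluster 14 left 8 with a median of -0.044, and with at least 200 UMIs per gene the median was 0.25. In elongating spermatid-like cells, where 8.84% of all genes were at least 2-fold higher and 4.44% lower, 15 kinesins entered. Of these, 1 was at least 2-fold higher and 0 lower, with a median of 0.24. The higher count was 3 with equal weight per cell, 2 after thinning, 2 at resolution 0.5, and 0 in cells with at least 5000 UMIs and when scaled. The median was 0.47 with equal weight per cell. Thinning left 8 members, and 1 was lower in cluster 16. In these cases fewer cells, UMIs or genes enter by construction for thinning, the depth limits, the gene filter and the single clusters, and for the others the cause was not tested. Shares over all genes are given only for the main setting and for clusters 14 and 16. The counts under the other settings are thus not a result about kinesins.

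Of the highest class of each member, thinning left 9 in a spermatogonia or spermatocyte class and 0 in a somatic class of the control library, and 11 in a spermatid and 9 in a somatic class of the ZEA library. The control somatic count was 0 in cells with at least 2000 UMIs, 1 with classes of at least 20 cells and 2 with unnamed clusters as classes. With unnamed clusters as classes, 6 control and 9 ZEA members were highest in a named spermatid class. The comparisons of single clusters and these last 2 class rules were chosen after seeing the data. The remaining 112 summary values did not move past their limits. Of the single-gene ratios, 310 stayed within their counting interval and 81 moved beyond it.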

Other observations

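Unnamed clusters held kinesin values that belong to no class. Cluster 7 (514 control cells, median 1142.5 UMIs), whose best-scoring list was that of elongating spermatids, had the highest control level of KIF17, with 213 CPM, and of KIF21B, with 173 CPM, beside 133 and 50.9 CPM in cluster 3. Its KIF5C level was 415 CPM. Cluster 22 of the ZEA library had low kinesin levels throughout, with KIF5C at 158 CPM and KIF27 at 71.4 CPM.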
